A study of Homo sapiens with 3 samples.

Results

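The sirtuins are 7 genes, SIRT1 to SIRT7, that encode deacylases dependent on the co-substrate NAD. They were chosen by name, and all 7 matched a RefSeq protein-coding gene on GRCh38, of 19970 protein-coding genes on chromosomes 1 to 22 and X. For each gene, peaks over its span and within 20 kb of either end were read from 3 deposited peak lists. The lists come from CUT&Tag of A2780, a human ovarian carcinoma line, with 1 library per group. In CUT&Tag an antibody tethers a transposase, which inserts sequencing adapters into the DNA around the antibody's target. The BPP group is A2780 treated with a peptide named BPP, described in the design text as a competitor for a BIN2 phosphorylation site, and was profiled for H3K27ac, an acetylated lysine of histone H3. The CTR group is A2780 labelled as the control and profiled for the same mark, and what these cells received is not stated in the sources used here. The IgG group is A2780 profiled with a non-specific antibody and measures background. On chromosomes 1 to 22 and X, the lists held 17841 BPP, 14836 CTR and 7701 IgG peaks. Reads per library are not stated, so depth is unknown, and the lists do not tell a site with no signal from one whose signal was too weak to be called. No difference has a replicate check and no p-value was computed. Among markers of the line, 3 of 10 epithelial and ovarian genes had a peak within 1 kb of a gene end in BPP, against 30.6% of all protein-coding genes, and 2 of 10 in CTR, against 31.2% (KRT8 and KRT18 in both, MSLN in BPP), and EPCAM, CDH1, PAX8, WT1 and MUC16 had none. The strongest KRT8 peaks lay at different ends of the gene in BPP (chromosome 12, 52896256 to 52896630) and CTR (chromosome 12, 52949527 to 52949878). KRT8 and KRT18 lie within 1 kb of each other. Of 3 mesenchymal markers, VIM and ZEB1 were marked in both lists, against 23.6% of all protein-coding genes. FN1 and the markers of other cells PTPRC, CD3E, PECAM1 and COL1A1 were marked in neither, against 61.8% of all protein-coding genes.

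H3K27ac is deposited by acetyltransferases at active promoters and enhancers and removed by deacetylases. Classical histone deacetylases use zinc, whereas sirtuins couple removal of an acyl group to cleavage of NAD and release nicotinamide. SIRT1, SIRT6 and SIRT7 are mainly nuclear, SIRT2 is mainly cytosolic, and SIRT3, SIRT4 and SIRT5 are mitochondrial. The peak lists show the mark at these genes and say nothing of the activity of their products.

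The 3 mitochondrial sirtuins, SIRT3, SIRT4 and SIRT5, had a peak within 1 kb of a gene end in both BPP and CTR. SIRT2 had one in CTR and none in BPP. The 3 nuclear sirtuins, SIRT1, SIRT6 and SIRT7, had none in either list, as did 61.8% of all protein-coding genes. This makes 3 of 7 in BPP and 4 of 7 in CTR, and 0 of 7 in IgG. Over all protein-coding genes the same call was made for 30.6% in BPP, 31.2% in CTR and 2.13% in IgG. A gene-end peak in both H3K27ac lists was held by 3 of 7 sirtuins and 23.6% of all genes, and one in CTR only by 1 of 7 and 7.57%. Over the gene span alone there was a peak for 3 of 7 in BPP and 4 of 7 in CTR, against 40.4% and 38.5% of all genes. With 20 kb on either side it was 5 of 7 in BPP, against 59.8% of all genes, and 5 of 7 in CTR, against 57.1%. The same 5 genes had it in both lists, against 50.2% of all genes, and SIRT1 and SIRT6 in neither, against 33.3%. In IgG it was 0 of 7, against 24.6%. With 7 genes these counts describe the family and are not read as a difference from other genes.

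**Figure D1:**
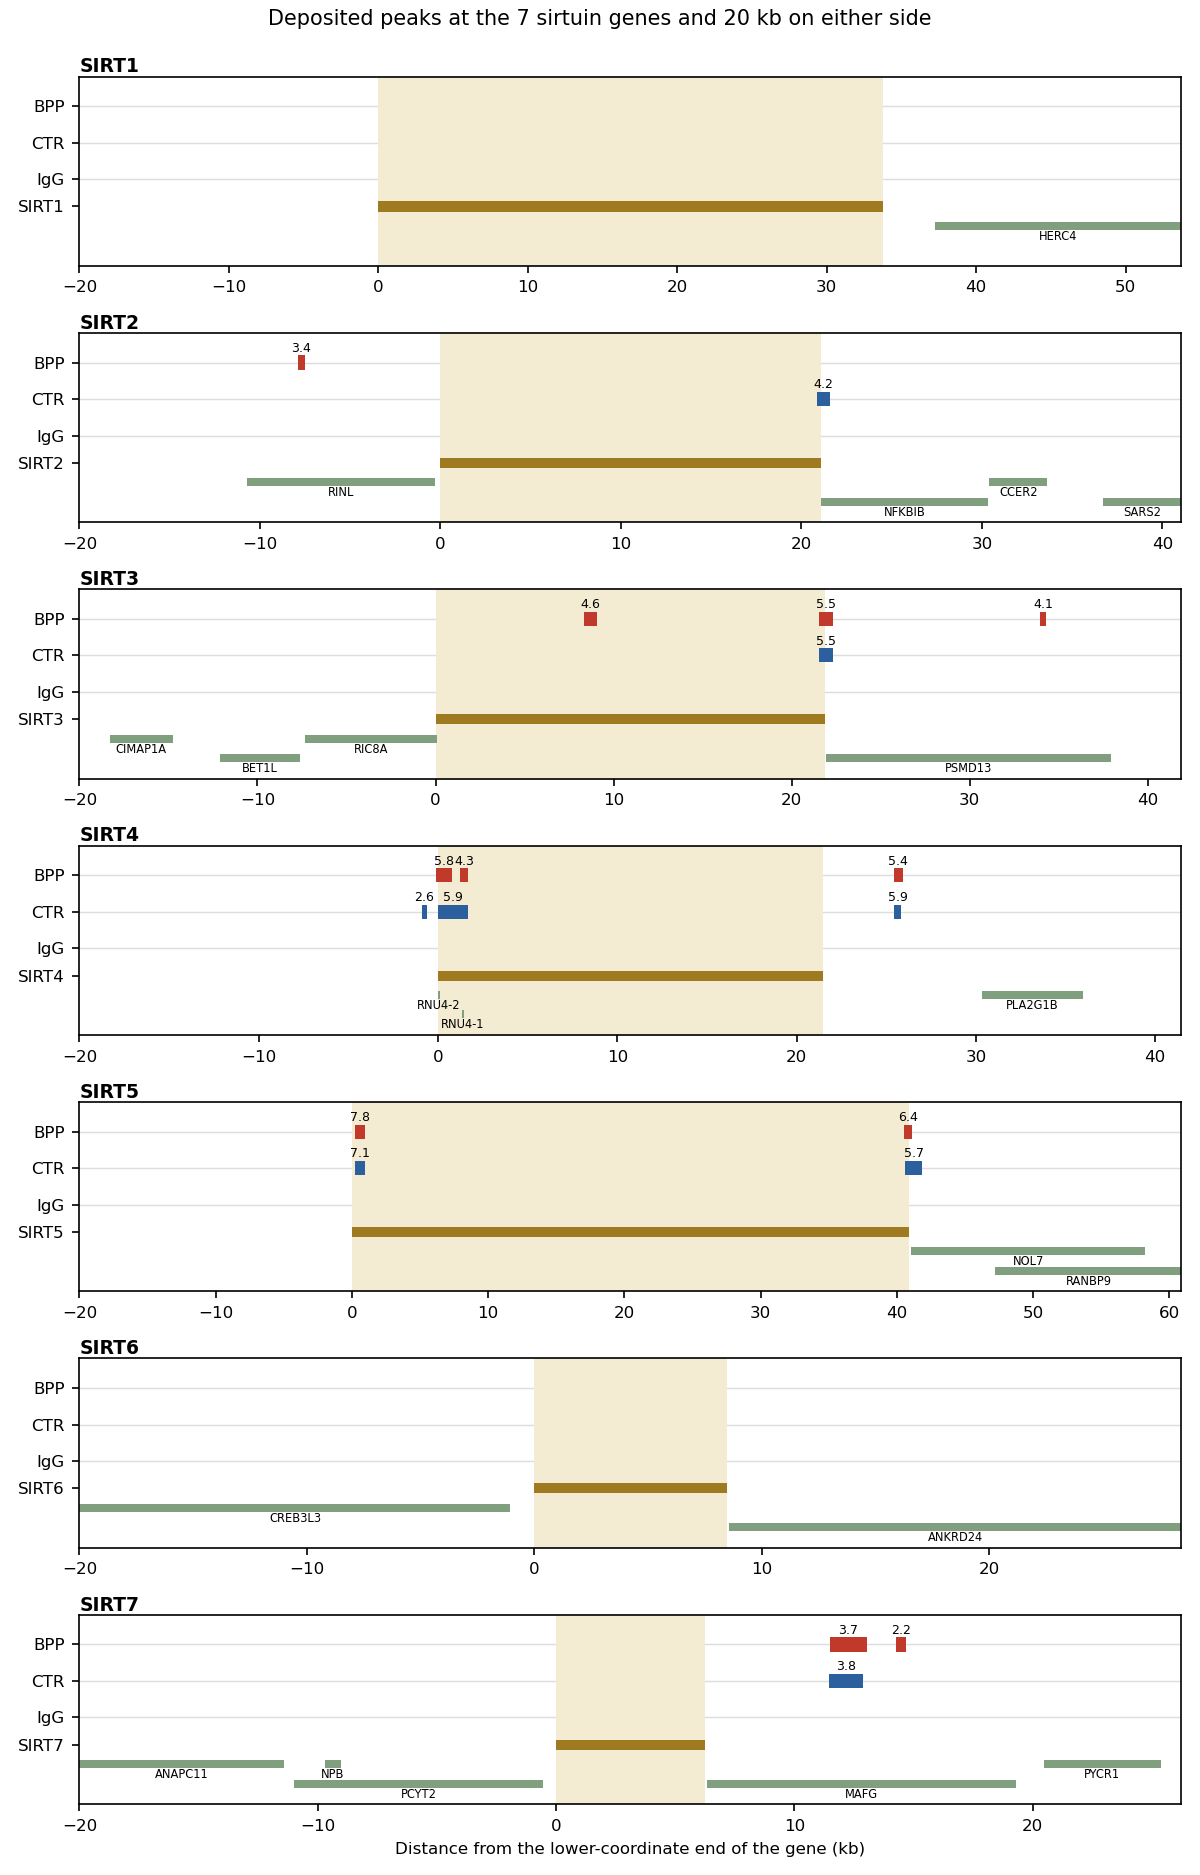
Peaks of the BPP, CTR and IgG lists (rows) at each sirtuin, by distance from the lower-coordinate gene end in kb. The number above a peak is the authors' fold, shading marks the gene span, and bars below are neighbouring protein-coding and small nuclear RNA genes. SIRT3, SIRT4 and SIRT5 have BPP and CTR peaks at a gene end, SIRT2 a CTR peak, and SIRT1 and SIRT6 no peak of any list in the window.

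The promoters of the genes that had a peak over an annotated start, of a second SIRT4 start without a peak and of 2 nuclear sirtuins are shown, because they are the DNA that these peaks do or do not cover. RefSeq promoters on GRCh38.p14 run from 250 bases before to 50 bases after an annotated start. They are printed 5′ to 3′ along the gene's strand. A promoter was found for 6 of the 7 members, and SIRT7 is named only. Capitals mark matches, on either strand, to 8 motifs spelled out after the sequences.
SIRT3 chr11:236882-237181, minus strand: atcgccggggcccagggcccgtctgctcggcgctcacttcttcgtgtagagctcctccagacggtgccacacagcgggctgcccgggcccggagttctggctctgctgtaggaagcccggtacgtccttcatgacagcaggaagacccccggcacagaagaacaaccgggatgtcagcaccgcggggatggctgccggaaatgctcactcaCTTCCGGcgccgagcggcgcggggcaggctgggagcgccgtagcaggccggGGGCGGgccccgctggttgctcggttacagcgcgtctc
SIRT4 chr12:120291939-120292238, plus strand: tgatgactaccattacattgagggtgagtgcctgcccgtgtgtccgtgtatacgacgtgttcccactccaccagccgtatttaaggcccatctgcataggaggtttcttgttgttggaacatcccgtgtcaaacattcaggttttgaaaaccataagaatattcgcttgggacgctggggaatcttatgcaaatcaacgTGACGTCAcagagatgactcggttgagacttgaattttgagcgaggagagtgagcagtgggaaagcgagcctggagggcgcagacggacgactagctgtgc
SIRT4 chr12:120302071-120302370, plus strand: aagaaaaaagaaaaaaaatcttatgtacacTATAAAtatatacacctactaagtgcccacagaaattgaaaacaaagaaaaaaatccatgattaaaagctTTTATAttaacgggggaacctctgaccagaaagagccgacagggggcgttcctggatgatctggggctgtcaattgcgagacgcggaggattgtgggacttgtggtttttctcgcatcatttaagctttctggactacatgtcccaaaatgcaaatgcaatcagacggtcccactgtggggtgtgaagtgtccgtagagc
SIRT5 chr6:13574351-13574650, plus strand: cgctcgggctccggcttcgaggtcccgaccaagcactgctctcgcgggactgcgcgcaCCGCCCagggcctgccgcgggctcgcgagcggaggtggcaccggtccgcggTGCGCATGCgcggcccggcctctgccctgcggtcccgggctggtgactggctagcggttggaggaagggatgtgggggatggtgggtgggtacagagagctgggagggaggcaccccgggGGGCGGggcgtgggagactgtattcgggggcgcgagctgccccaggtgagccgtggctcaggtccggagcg
SIRT2 chr19:38899569-38899868, minus strand: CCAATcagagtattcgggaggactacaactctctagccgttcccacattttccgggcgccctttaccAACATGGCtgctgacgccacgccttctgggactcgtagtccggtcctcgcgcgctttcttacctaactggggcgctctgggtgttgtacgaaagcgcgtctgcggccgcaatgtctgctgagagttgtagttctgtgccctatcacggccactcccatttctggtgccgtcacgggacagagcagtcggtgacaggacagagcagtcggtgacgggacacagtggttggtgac
SIRT1 chr10:67884406-67884705, plus strand: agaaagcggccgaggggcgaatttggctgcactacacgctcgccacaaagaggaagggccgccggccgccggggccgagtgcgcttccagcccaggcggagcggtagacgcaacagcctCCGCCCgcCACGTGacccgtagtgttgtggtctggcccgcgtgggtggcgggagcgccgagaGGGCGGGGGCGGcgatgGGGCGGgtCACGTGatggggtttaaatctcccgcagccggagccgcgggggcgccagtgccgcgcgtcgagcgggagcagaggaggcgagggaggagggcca
SIRT6 chr19:4182514-4182813, minus strand: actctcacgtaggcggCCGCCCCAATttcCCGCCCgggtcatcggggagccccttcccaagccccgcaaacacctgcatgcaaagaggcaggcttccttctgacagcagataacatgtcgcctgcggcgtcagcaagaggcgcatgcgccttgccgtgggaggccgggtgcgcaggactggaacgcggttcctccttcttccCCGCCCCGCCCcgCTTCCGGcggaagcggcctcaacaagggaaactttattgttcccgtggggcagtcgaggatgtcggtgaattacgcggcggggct

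The motif taken for NRF1 was TGCGCATGC, which 1.88% of 22131 promoters of protein-coding genes held. For ETS factors it was CCGGAAG, held by 12.8% of these promoters. For SP and KLF factors it was GGGCGG, held by 56.3%. The E-box was CACGTG, held by 8.34%. The cAMP response element (CRE) was TGACGTCA, held by 2.26%. For NF-Y it was CCAAT, held by 34.6%. The TATA motif was TATAAA, held by 9.46%. For YY1 it was GCCATNTT, held by 7.37%. SIRT4 held the one CRE match of the family, at its first start, and 2 TATA matches at the second. SIRT5 held the one NRF1 match, along with 2 SP and KLF matches in the promoter printed. SIRT1 held 2 E-box and 4 SP and KLF matches, a pair of which are directly joined. SIRT3 held 1 ETS and 1 SP and KLF match. In SIRT2 there was 1 YY1 and 1 NF-Y match. SIRT6 held 4 SP and KLF, 1 ETS and 1 NF-Y match at the start printed, and its NF-Y match shares a base with an SP and KLF match on the other strand. A match is a run of letters and says nothing of binding.

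SIRT3 encodes the main deacetylase of the mitochondrial matrix. Its start-side peak had a fold of 5.46 in BPP and 5.52 in CTR, with −log10 q of 12.7 in BPP and 11.7 in CTR. Fold is the authors' ratio over a background they do not describe here, and q is the authors' adjusted p of the peak, so both describe a peak within its own list. The BPP peak (chromosome 11, 236594 to 237346) and the CTR peak (chromosome 11, 236574 to 237344) shared 751 bases and both covered the SIRT3 start at 236931. They also covered the start of PSMD13, a proteasome lid subunit gene on the opposite strand, with 44 bases between the genes. The mark at this place therefore cannot be divided between SIRT3 and PSMD13. A further pair of BPP peaks had no CTR counterpart in the neighbourhood. Of these, 1 lay inside SIRT3, 8.35 kb from the lower end and 12.8 kb from the higher end (chromosome 11, 223376 to 224085), with a fold of 4.60 and −log10 q of 6.80. The other lay inside PSMD13, 12.1 kb beyond SIRT3 (chromosome 11, 249000 to 249307), with a fold of 4.09 and −log10 q of 5.52. At the lower end, where SIRT3 overlaps RIC8A, no list had a peak.

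SIRT4 encodes a mitochondrial ADP-ribosyltransferase and lipoamidase, and its peaks had the highest −log10 q of the family. At its first start (chromosome 12, 120292189) the BPP peak had a fold of 5.80 and −log10 q of 31.4 (chromosome 12, 120291676 to 120292575). The CTR peak had a fold of 5.88 and −log10 q of 26.7 (chromosome 12, 120291778 to 120293461). These q values exceed those of 96.6% of the BPP list and 94.7% of the CTR list. The CTR peak was 1684 bp wide and overlapped 2 BPP peaks, by 1234 bases in all. The second of these BPP peaks (chromosome 12, 120293015 to 120293450; fold 4.33, −log10 q 16.5) lay 1.24 kb from the lower gene end. The 2 places hold RNU4-2 and RNU4-1, which encode U4 small nuclear RNA of the spliceosome and lie within the SIRT4 locus, so the mark there is shared with those genes. U4 genes have near-identical copies, and how reads of such copies were placed is not stated in the sources used here. A weaker CTR peak, with no BPP counterpart, lay 600 bp before the gene (chromosome 12, 120290871 to 120291180; fold 2.55, −log10 q 3.29).

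A further peak pair lay beyond the higher end of SIRT4, outside any RefSeq gene. The BPP peak was 3.94 kb beyond that end and 25.4 kb from the lower end (chromosome 12, 120317192 to 120317733), with a fold of 5.43 and −log10 q of 8.74. The CTR peak was 3.97 kb beyond it (chromosome 12, 120317216 to 120317618), with a fold of 5.89 and −log10 q of 9.20. It lay wholly within the BPP peak, sharing all of its 403 bases. No peak covered the second annotated SIRT4 start at 120302321, and the nearest lay 8871 bp away in BPP and 8860 bp away in CTR.

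SIRT5, the mitochondrial desuccinylase and demalonylase, was marked at both gene ends in both lists and had the highest folds of the family. At the start side the fold was 7.84 for the peak of the BPP list (chromosome 6, 13574523 to 13575262). It was 7.05 for that of the CTR list (chromosome 6, 13574491 to 13575257). Their −log10 q values were 14.4 in BPP and 12.1 in CTR, and they shared 735 bases. Both covered the annotated SIRT5 starts at 13574529 and 13574601 and neither reached that of LOC105374937, a long non-coding RNA gene on the opposite strand. At the far end it was 6.40 for the peak of the BPP list (chromosome 6, 13614770 to 13615348). It was 5.72 there for that of the CTR list (chromosome 6, 13614855 to 13616143), with −log10 q of 13.4 in BPP and 10.7 in CTR. That place is the start of NOL7, a nucleolar protein gene, and of the non-coding LOC124901263, and NOL7 lies 176 bases beyond SIRT5. The far-end peaks therefore are not start peaks of SIRT5.

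SIRT2, a mainly cytosolic deacetylase known for acting on alpha-tubulin, had its gene-end peak in CTR (chromosome 19, 38899400 to 38900167), with a fold of 4.18 and −log10 q of 6.16. It covered the SIRT2 start at 38899618 and both starts of NFKBIB, an inhibitor of NF-kappa-B, which lies on the opposite strand with 47 bases between the genes. Its q exceeded that of 38.6% of the CTR list. No BPP peak lay within 1 kb of SIRT2. The BPP peak in the neighbourhood lay 7.53 kb beyond the other end, inside RINL (chromosome 19, 38870670 to 38871026), with a fold of 3.39 and −log10 q of 3.15, a value above that of 1.33% of the BPP list. Of CTR peaks in the same part of the list as the SIRT2 peak, when it is split by −log10 p into 10 equal parts, 48.7% were overlapped by a BPP peak, so presence in CTR alone was common among peaks of this strength.

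**Figure D2:**
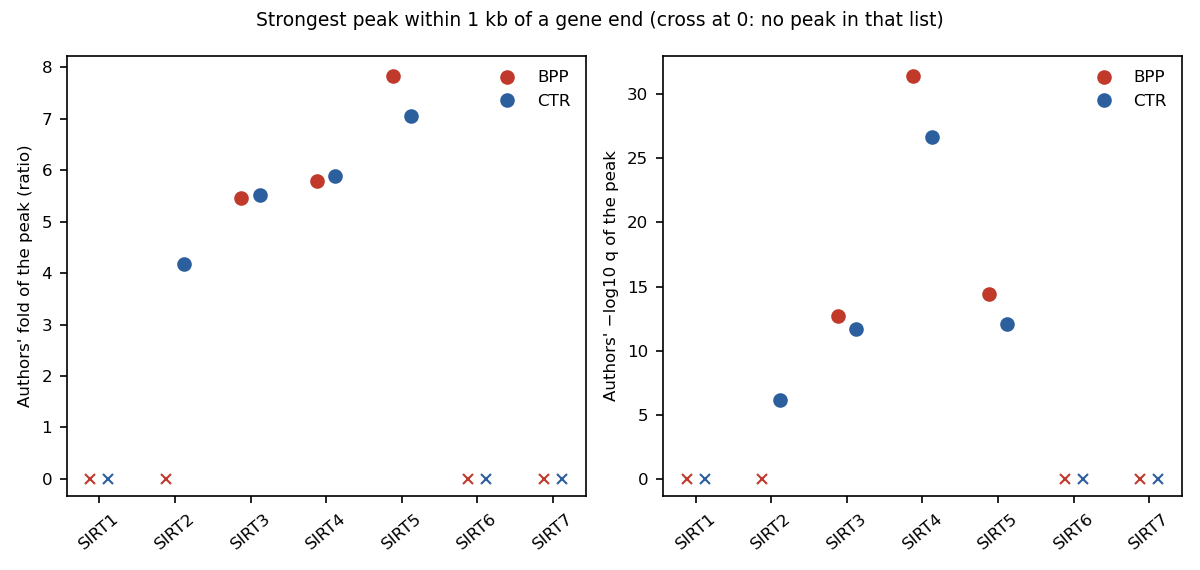
Authors' fold (left) and −log10 q (right) of the strongest peak within 1 kb of a gene end, for each sirtuin in BPP and CTR, with a cross at 0 where the list has no such peak. SIRT5 has the highest folds (7.84 in BPP, 7.05 in CTR) and SIRT4 the highest −log10 q (31.4 in BPP, 26.7 in CTR).

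SIRT1, a nuclear deacetylase that acts on FOXO proteins, had no peak of any list over its 33.7 kb span or within 20 kb of it. The nearest H3K27ac peaks were 34.7 kb away in BPP (chromosome 10, 67849337 to 67849926; fold 6.74) and 34.6 kb away in CTR (chromosome 10, 67849530 to 67850050; fold 6.07), on the side of its start and over no RefSeq gene. Of all protein-coding genes, 34.4% lay farther from their nearest BPP peak and 36.3% from their nearest CTR peak. SIRT6, a nuclear deacetylase of histone H3, likewise had none. Its nearest peaks were 42.9 kb away in BPP (chromosome 19, 4130660 to 4131223; fold 4.73) and 42.7 kb away in CTR (chromosome 19, 4130793 to 4131418; fold 4.22). Both lay on the side away from its start. Here 32.0% of all protein-coding genes lay farther from their nearest BPP peak and 33.3% from their nearest CTR peak. SIRT6 starts 125 bases from ANKRD24, on the opposite strand, and that start also lay outside any peak.

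SIRT7, the nucleolar sirtuin linked to ribosomal DNA transcription, had no peak over its 6.24 kb span. It lies 93 bases from MAFG, a small MAF transcription factor gene, and 539 bases from PCYT2, of phosphatidylethanolamine synthesis. A broad peak 5.24 kb beyond SIRT7 in BPP (chromosome 17, 81923412 to 81924979) had a CTR counterpart 5.21 kb beyond it (chromosome 17, 81923387 to 81924816), both inside MAFG and over MAFG-AS1. Its fold was 3.75 in BPP and 3.77 in CTR, with −log10 q of 20.7 in BPP and 18.3 in CTR, and the peaks shared 1405 bases. A further BPP peak, 8.01 kb beyond SIRT7 in MAFG (chromosome 17, 81926187 to 81926623), had a fold of 2.24 and −log10 q of 4.21 and no CTR counterpart. No list had a peak within 1 kb of either end of SIRT7.

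In all, 11 BPP and 8 CTR peaks lay at the sirtuins, and none of IgG. Of the 11 BPP peaks, 7 shared 1 bp or more with a CTR peak (63.6%, exact 95% interval 30.8 to 89.1), against 50.04% of the whole BPP list. Of the 8 CTR peaks, 6 overlapped a BPP peak (75.0%, 34.9 to 96.8), against 59.6% of the CTR list. These intervals cover counting error only, and both include the share of the whole list. With each list divided into 10 equal parts by −log10 p, the 7 overlapped BPP peaks and 6 overlapped CTR peaks all lay in the first 4 parts. The 4 BPP and 2 CTR peaks without a counterpart lay in the 6th part or lower. In the lists as a whole the overlapped share was 97.9% in the first part of BPP and 93.0% in that of CTR. In the 6th it was 40.4% in BPP and 53.3% in CTR.

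**Figure D3:**
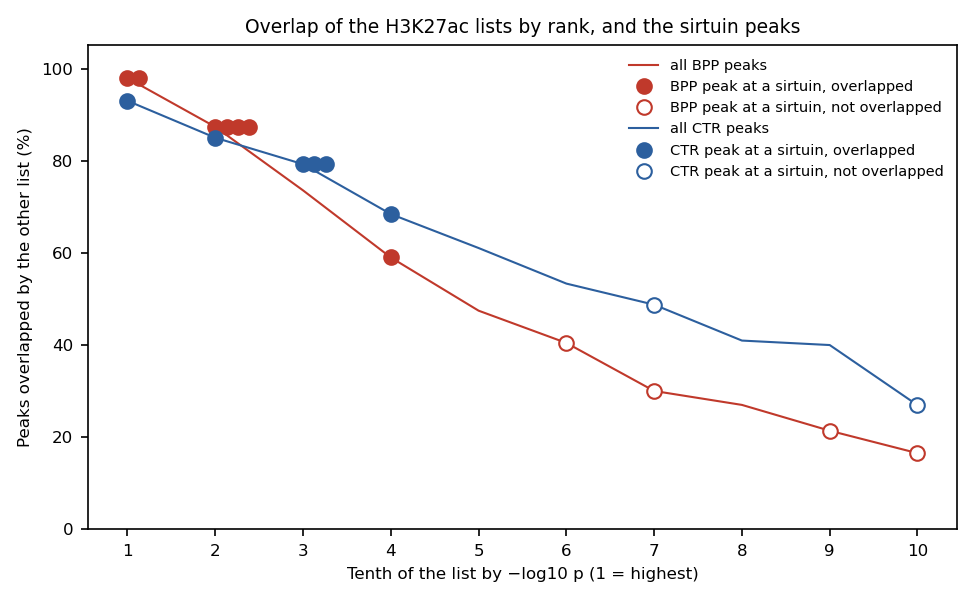
Share of peaks overlapped by the other H3K27ac list (y axis, %) in each of 10 equal parts of the BPP and CTR lists by −log10 p (x axis, 1 is the highest), as lines. Circles place the 11 BPP and 8 CTR peaks at sirtuins in their part, filled where overlapped, and set side by side within it. All filled circles lie in parts 1 to 4 and all open circles in parts 6 to 10.

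Other features of the loci were compared with all genes. Another protein-coding gene overlapped or lay within 1 kb of 5 of 7 sirtuins (SIRT2, SIRT3, SIRT5, SIRT6 and SIRT7), against 39.0% of all protein-coding genes. Among all genes with such a neighbour, 32.8% had a gene-end peak in both lists, against 17.7% of those without. Promoters rich in CpG, here at least 50% GC with an observed over expected CpG ratio of at least 0.6, had a BPP peak in 28.2% and a CTR peak in 34.9% of 13282 cases. Of 8849 other promoters, 9.13% had one in BPP and 7.80% in CTR. By gene, 23.8% of genes in the promoter table had a promoter peak in BPP, 27.8% in CTR and 0.645% in IgG. Of the 6 sirtuins in that table, SIRT3, SIRT4 and SIRT5 had one in BPP, and these and SIRT2 in CTR. SIRT3, SIRT4 and SIRT5 had it in both, against 19% of genes, and SIRT2 in CTR only, against 8.83%. Within 1 kb of an annotated start the calls for these 6 genes were the same, against 32.3% of genes in BPP, 33.9% in CTR, 25.9% in both and 8.08% in CTR only. The promoters of SIRT1 and SIRT6 were CpG-rich, as were those of SIRT2, SIRT3 and SIRT5 and the first of SIRT4. The ratio was 1.03 for SIRT1, 0.917 for SIRT6 at the start printed, and 0.861 for SIRT3. The second SIRT4 promoter, with a GC content of 42.3%, was not in that class. Membership of the CpG-rich class was thus held by marked and unmarked sirtuin promoters alike.

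**Figure D4:**
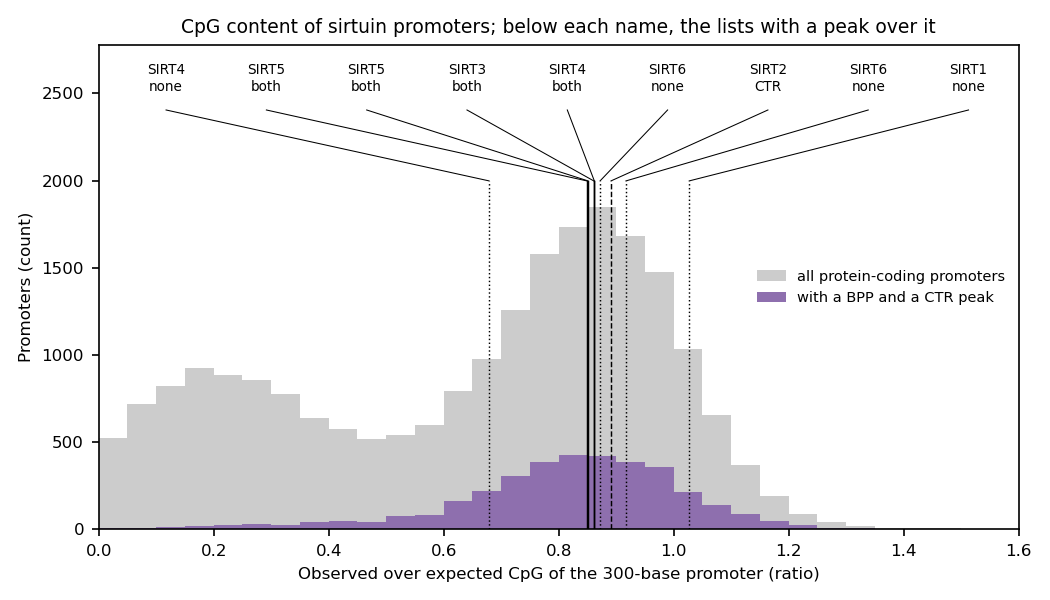
Observed over expected CpG ratio (x axis) of 22131 promoters of protein-coding genes, as counts per bin (y axis), for all promoters and for those with both a BPP and a CTR peak. Lines mark the 9 annotated sirtuin promoters, with the lists that have a peak over each. SIRT1, with no peak, has the highest ratio of the family (1.03), and the second SIRT4 promoter the lowest (0.679).

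The classical histone deacetylases are the family closest in function. Of 11 genes, 7 had a gene-end peak in BPP, against 3 of the 7 sirtuins and 30.6% of all genes. In CTR 5 had one, against 4 of the 7 sirtuins and 31.2% of all genes. A peak in both lists was held by 5 of 11, against 23.6% of all genes, and one in BPP only by 2 of 11, against 7.03%. HDAC1, HDAC2, HDAC4, HDAC6 and HDAC10 were marked in both, HDAC5 (fold 6.35) and HDAC11 (fold 4.23) in BPP only, and none in CTR only. At HDAC1 and HDAC10 the strongest BPP and CTR peaks did not overlap each other, and their CTR peaks had −log10 q of 4.89 at HDAC1 and 4.55 at HDAC10. MARCKSL1 lies within 1 kb of HDAC1, TUBGCP6 within 1 kb of HDAC10 and G6PC3 within 1 kb of HDAC5. A gene-end call counts either end of the gene, so these marks may belong to the neighbour and were not divided between the genes. With peaks of −log10 q of 5 or more alone, 3 classical deacetylases were marked in both lists and 4 in BPP only. The share of all genes under this filter was not computed, so these counts have no background. HDAC7 had an IgG gene-end peak and none of H3K27ac, and HDAC3, HDAC8 and HDAC9 had no gene-end peak. HDAC2, a nuclear class I enzyme, had the strongest, with a fold of 12.3 in BPP and 10.7 in CTR, above any sirtuin peak of the same list. No test of a difference between the families was made.

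Genes that make, recycle or consume NAD supply or compete for the sirtuin co-substrate. Of 27, 11 had a gene-end peak in BPP (40.7%, against 30.6% of all genes) and 8 in CTR (29.6%, against 31.2%), and none in IgG, against 2.13%. There were 8 of 27 in both lists, against 23.6% of all genes, 3 in BPP only, against 7.03%, and 0 in CTR only, against 7.57%. The 4 strongest of those in both by −log10 q were NADK2, mitochondrial NAD kinase (fold 7.28 in BPP, 6.56 in CTR), PNP, a purine nucleoside phosphorylase (6.44 in BPP, 6.37 in CTR), NMRK1, nicotinamide riboside kinase (6.19 in BPP, 7.51 in CTR), and QPRT, of de novo synthesis (4.82 in BPP, 4.37 in CTR). NAMPT, which recycles the nicotinamide that sirtuins release, was also in both, with a fold of 6.23 in BPP and 6.18 in CTR. The BPP-only genes were PARP2, which consumes NAD in DNA repair (fold 4.97), AFMID (4.12) and NAPRT (2.56). Each of these 3 has another gene within 1 kb of its span (RPPH1, TK1 and MROH6). So do NADK2 (SKP2, NADK2-AS1 and LOC124900962), NMRK1 (OSTF1) and NAMPT (NAMPT-AS1), but not PNP and QPRT. The marks were not divided between such neighbours. PARP1, SARM1, CD38, NADK and NADSYN1 were among the 16 of 27 with no H3K27ac gene-end peak, against 61.8% of all genes.

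Partners and substrates of sirtuins were marked in 18 of 40 cases in BPP (45.0%, against 30.6% of all genes) and 24 of 40 in CTR (60.0%, against 31.2%). Of the 40, 17 were marked in both lists, against 23.6% of all genes. ELK4 was the 1 BPP-only gene, against 7.03% of all genes, and 7 were marked in CTR only, against 7.57%. Among those in both lists, ESRRA, a nuclear receptor gene, had a fold of 5.92 in BPP and 5.31 in CTR. POLR1B, an RNA polymerase I subunit gene, had a fold of 7.68 in BPP and 7.26 in CTR. SMARCA5, a chromatin remodeller gene, had a fold of 9.38 in BPP and 8.57 in CTR. The CTR-only genes included GLUD1, glutamate dehydrogenase, a target of SIRT4 (fold 7.12), ACSS2, an acetyl-CoA synthetase (fold 6.03), HIF1A (fold 5.73) and H2AX (fold 4.14). ELK4, a transcription factor that recruits SIRT7, had a fold of 5.78 in BPP. XRCC6 also had an IgG gene-end peak, with a fold of 3.58. Each marked gene named here has another gene within 1 kb of its span, such as SHLD2 for GLUD1 and GSS for ACSS2. The marks were not divided between them. FOXO1, FOXO3, FOXO4 and PPARGC1A were among the 15 of 40 with no H3K27ac gene-end peak, against 61.8% of all genes. The lists have different lengths and 1 library each, so these counts are statements about the lists.

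**Figure D5:**
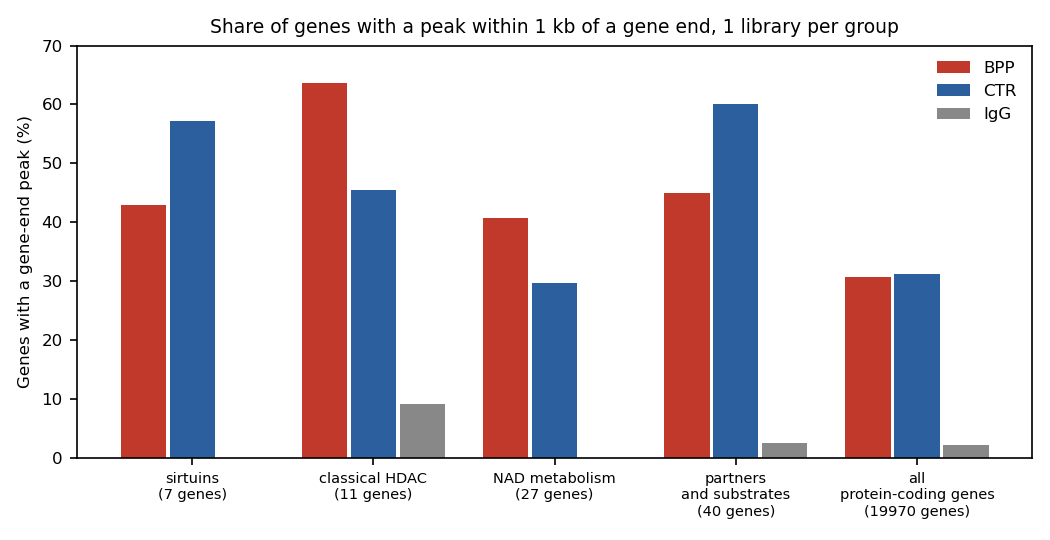
Share of genes (%) with a peak within 1 kb of a gene end in BPP, CTR and IgG, for 4 gene lists and all protein-coding genes, with 1 library per bar and hence no error bar. For the 7 sirtuins the shares are 42.9% in BPP and 57.1% in CTR, with no bar for IgG because none was marked.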

How the data were processed

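H3K27ac and IgG CUT&Tag of A2780 cells gave 3 libraries, 1 each for BPP, CTR and IgG, grouped by their titles. The submitters' processing notes name Bowtie2 2.4.1, fastp, deepTools 3.3.0 and the build GRCh38.p13 (hg38). The peak caller and any use of IgG during calling are not stated there. A peak list was deposited by the authors for each library, with no pooling. The deposited score of each peak is 10 times its −log10 p, cut to a whole number. The deposited fold is a ratio over an undescribed background, and the deposited −log10 p and −log10 q are the caller's. All peaks of the autosomes and X had a −log10 p above 5.

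Peaks of the autosomes and X were set against gene spans of a RefSeq table (GRCh38.p14), with overlap from 1 bp. A gene-end peak overlaps the window of 1 kb on either side of a span end. Starts and promoters came from a RefSeq promoter table of GRCh38.p14. It holds 15811 of the protein-coding genes. Patch releases share chromosome coordinates. Positions count from 1. Intervals are exact (Clopper-Pearson). The members and lists were chosen with earlier results of these data known, and the CpG classes and the window at starts alone after the peaks were seen. Named genes were the 7 members, genes at their peaks, all classical deacetylases and up to 4 list members per state by −log10 q. Some members that the lists hold and count are not reported here by name. NAMPT, PARP1 and other list members named outside this rule were chosen after their values were seen. Alternatives changed the windows, the peak filter and the overlap. Work was done in Python 3.11.15 with scipy 1.17.1, pandas 2.3.3, matplotlib 3.10.9 and numpy 2.4.6, and overlaps were checked against bedtools 2.31.1 and tested on simulated data.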

Additional observations from a re-analysis of the deposited data

How the results depend on the processing

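Of 98 alternative values, 75 stayed within 1.5 times the count (for overlap shares, within the exact interval) and 23 did not. SIRT3, SIRT4 and SIRT5 were marked in both lists, and SIRT1 and SIRT6 in neither, in all 6 alternatives, which were windows of 500 bp and 2 kb, −log10 q of 5 or more, fold of 5 or more, the top 5000 peaks and annotated starts alone (added after the data were seen). SIRT7 was in neither in the 5 that use gene ends. SIRT2, the 1 gene marked in CTR only, gave a count of 0 with fold of 5 or more and with the top 5000 peaks, since its CTR peak is below both limits. Peaks at sirtuins numbered 6 in BPP and 5 in CTR over the spans alone, 28 in BPP, 20 in CTR and 2 in IgG with 50 kb on either side, 5 and 5 with fold of 5 or more, and 6 and 5 with the top 5000 peaks. With fold of 5 or more, the share overlapped by the other list was 100% in both (5 BPP and 5 CTR peaks). The share of the whole lists under this filter was not computed. Where overlap had to cover at least 50% of both peaks, the share was 36.4% in BPP (4 of 11) and 50% in CTR (4 of 8). With −log10 q of 5 or more, 3 classical deacetylases were marked in CTR, 3 in both, 4 in BPP only and 0 in IgG, 1 NAD gene was marked in CTR only, and 0 partners in IgG. With windows of 2 kb, 1 deacetylase and 3 partners were marked in BPP only, and 1 NAD gene and 3 partners in IgG. Shares of all genes were not computed for the windows of 500 bp and 2 kb or under the −log10 q filter. They were also not computed under the fold filter or for the top 5000 peaks, so counts in these settings have no background. No paired analysis was possible because each group has 1 library. Depth is unknown, so absence of a peak from a list could not be told apart from a signal under the caller's limit.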

Other observations

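The highest points of paired peaks did not always coincide. At the SIRT3 and PSMD13 pair the summit lay 207 bp from the SIRT3 start on the PSMD13 side in BPP (chromosome 11, 237138) and 273 bp from it inside SIRT3 in CTR (chromosome 11, 236658). At the SIRT5 start the summit lay 465 bp from the nearest annotated start in BPP and 12 bp from it in CTR. At the first SIRT4 start the distances were 120 bp in BPP and 95 bp in CTR. The summit of the SIRT2 peak in CTR lay 48 bp from the SIRT2 start and fell on an NFKBIB start, at 0 bp. With 1 library per group, whether these positions differ by more than the spread between cultures was not tested.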
